A study of Homo sapiens with 6 samples.

Results

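CCNA2, KIF20A, PIMREG and CENPE are 4 genes of G2 and mitosis whose mRNA was measured after knockdown of clusterin (CLU). They were taken as the probes that carry a RefSeq mRNA accession of these genes, 1 probe per gene, and were selected with the results of this knockdown contrast known, so the differences between the groups below are a description of selected genes and carry no test. The 4 probes are A_23_P58321 for CCNA2, A_23_P256956 for KIF20A, A_23_P49878 for PIMREG and A_23_P253524 for CENPE. They are 4 of 175287 probes on the arrays and 4 of the 50 probes that carry a RefSeq accession. The other 175237 probes are listed by identifier alone.

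RNA came from PC3, an established human prostate cancer cell line, that had received 10 nM of an siRNA. In 3 arrays this was directed at CLU (siCLU), and in the other 3 it had a scrambled sequence (siSCR). The study's design text calls each group a biological triplicate of PC3, and both groups share the transfection itself, with no array from untransfected cells among the 6. Clusterin is a chaperone protein, secreted in its main form, and the study asked which transcripts, among them cell cycle regulators, change when it is depleted. The label of the source names a prostate tumor, while the cell line is given as PC3. A probe for CLU and probes for epithelial, androgen-response and blood cell markers are not among the named ones, so neither the knockdown nor the identity of the cells was checked on these arrays.

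Progression into mitosis is driven by cyclins bound to cyclin-dependent kinases, and the mRNAs of many mitotic proteins accumulate in late S phase and G2 and fall again as cells divide. CCNA2 encodes cyclin A2, which activates CDK2 in S phase and CDK1 in G2 and is destroyed early in mitosis. CENPE encodes a kinesin motor at kinetochores that moves chromosomes to the metaphase plate, KIF20A encodes a kinesin of the central spindle needed for cytokinesis, and PIMREG, formerly FAM64A, encodes a mitotic protein linked to the metaphase to anaphase transition. Promoters of late cell cycle genes often hold a cell cycle genes homology region (CHR), a short element recognized by the DREAM and MuvB complexes, together with CCAAT boxes bound by NF-Y.

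The promoters are shown as a description of the members. Whether their letters bear on the differences between the groups was not tested. Promoters of CCNA2, KIF20A and CENPE are held by the RefSeq promoter table, 3 of the 4 members, and are given as the 250 bases before the annotated start, read 5′ to 3′ on the gene's strand in GRCh38.p14. They lie at chr4:121823884-121824133 on the minus strand for CCNA2, chr5:138178862-138179111 on the plus strand for KIF20A and chr4:103198344-103198593 on the minus strand for CENPE. None of the 3 stretches overlaps another gene of the RefSeq gene table. Capitals mark the letters of a CHR, which are TTTGAA or TTTAAA or CTTGAA or TTCGAA, and the letters CCAAT of a CCAAT box, each searched on both strands, so that ATTGG and TTCAAG are matches on the opposite strand.
CCNA2: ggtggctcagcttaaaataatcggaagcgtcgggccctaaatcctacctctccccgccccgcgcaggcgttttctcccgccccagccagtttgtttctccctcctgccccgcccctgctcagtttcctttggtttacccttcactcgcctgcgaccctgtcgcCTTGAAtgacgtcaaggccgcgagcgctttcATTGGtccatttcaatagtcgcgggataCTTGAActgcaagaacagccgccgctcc
KIF20A: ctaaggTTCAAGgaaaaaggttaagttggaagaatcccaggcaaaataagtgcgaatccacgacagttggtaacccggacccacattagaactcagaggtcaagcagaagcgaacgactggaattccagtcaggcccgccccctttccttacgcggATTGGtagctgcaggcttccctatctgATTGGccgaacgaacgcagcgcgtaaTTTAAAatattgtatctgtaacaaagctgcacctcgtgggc
CENPE: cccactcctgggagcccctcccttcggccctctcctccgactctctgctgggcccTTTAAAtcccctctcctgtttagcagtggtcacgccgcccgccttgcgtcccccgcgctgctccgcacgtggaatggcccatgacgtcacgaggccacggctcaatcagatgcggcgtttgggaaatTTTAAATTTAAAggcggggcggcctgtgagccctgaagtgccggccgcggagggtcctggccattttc

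The CCNA2 stretch held CTTGAA beginning 87 and 28 bases before the start and ATTGG beginning at 56. In the KIF20A stretch TTTAAA began 41 bases before the start and TTCAAG 244 bases before it, and ATTGG began at 94 and 67. The CENPE stretch held TTTAAA beginning 195, 68 and 62 bases before the start, the last pair directly adjoining, and no CCAAT letters. Over 35116 promoter stretches of this length in the table, 29.1% held CHR letters, 32% held CCAAT letters and 10.2% held both, so these matches are common and mark letters, not sites. No match of one motif overlapped a match of the other in these 3 stretches.

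The arrays were one-color, each probed with Cy3-labeled cRNA from 100 ng of RNA, and lay on 3 slides. siSCR replicate 1 was alone on slide 1, siSCR replicates 2 and 3 shared slide 2 with siCLU replicate 3, and the other siCLU arrays were on slide 3. The array of siSCR replicate 3 stood apart, since 45.9% of its spots were well above background against 73.5% to 77.2% on the other 5 arrays, and 23 of its 200 tiles of equal area were bright, meaning that the 10th percentile of their spot signal was over 1.5 times that of the median tile. No spot was saturated on any array. Values are log2 signals after quantile normalization of the arrays, each the mean over the spots of a probe that the scanner software did not mark as outliers, and each probe's level is compared only with itself. All 4 probes were well above background on all 6 arrays, with a median spot signal 21.1 to 603 times the local background, and all 4 therefore passed the filter on dim probes.

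CCNA2, the S phase and G2 cyclin, had the largest difference of the 4. In order of replicate number, its log2 signal was 10.12, 9.61 and 10.28 with siSCR and 12.02, 11.34 and 11.22 with siCLU. Every siCLU array lay above every siSCR array, with 0.94 between the lowest siCLU array and the highest siSCR array, and siCLU replicate 1 was the highest of all. The group means were 10.004 ± 0.35 (SD, n = 3) for siSCR and 11.53 ± 0.43 (SD, n = 3) for siCLU, a log2 difference of 1.52 with a standard error of 0.29, or 2.87-fold. Standard errors (SE) here and below are the moderated ones of limma, which also draw on the variance of the other probes in the fit. They therefore do not follow from the printed SDs alone. In these bulk samples, more cells in S, G2 or M phase and more of the RNA per cell cannot be told apart, which holds for each of the 4 genes.

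KIF20A, the central spindle kinesin, was next. By replicate, the log2 signal of KIF20A was 10.41, 9.73 and 10.54 with siSCR and 11.58, 11.41 and 11.21 with siCLU. The groups did not overlap, the gap between the nearest arrays being 0.67, and siSCR replicate 2 was the lowest array, as it was for CCNA2. The means were 10.23 ± 0.44 (SD, n = 3) and 11.40 ± 0.19 (SD, n = 3), a log2 difference of 1.17 (SE 0.26), or 2.25-fold.

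CENPE, the kinetochore kinesin, had the widest spread between arrays of the 4. In order of replicate number, its log2 signal was 9.61, 10.08 and 10.42 with siSCR and 11.59, 10.42 and 10.64 with siCLU. The groups met at 10.42, where siCLU replicate 2 and siSCR replicate 3 read the same to that precision, and siCLU was above siSCR in 8 of 9 pairings of arrays. The means were 10.04 ± 0.41 (SD, n = 3) and 10.88 ± 0.62 (SD, n = 3), a log2 difference of 0.85 (SE 0.37), or 1.80-fold. With single arrays left out in turn, this difference ranged from 0.49 without siCLU replicate 1 to 1.08 without siCLU replicate 2. It was 0.39 within slide 2.

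PIMREG, the metaphase to anaphase protein, had the smallest difference and the closest siCLU arrays. The log2 signal of PIMREG was, by replicate, 13.31, 12.88 and 13.11 with siSCR and 13.67, 13.63 and 13.63 with siCLU. All siCLU arrays lay above all siSCR arrays, by 0.32 at the nearest, and the siCLU arrays spanned 0.049 against 0.43 for the siSCR arrays. The means were 13.10 ± 0.22 (SD, n = 3) and 13.64 ± 0.028 (SD, n = 3), a log2 difference of 0.54 (SE 0.16), or 1.46-fold, which is under the 1.5-fold limit of the study's methods. The narrow siCLU span was not seen with no normalization between arrays. There PIMREG was at 14.10, 13.78 and 13.48 with siCLU and at 13.10, 12.66 and 13.10 with siSCR.

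**Figure D1:**
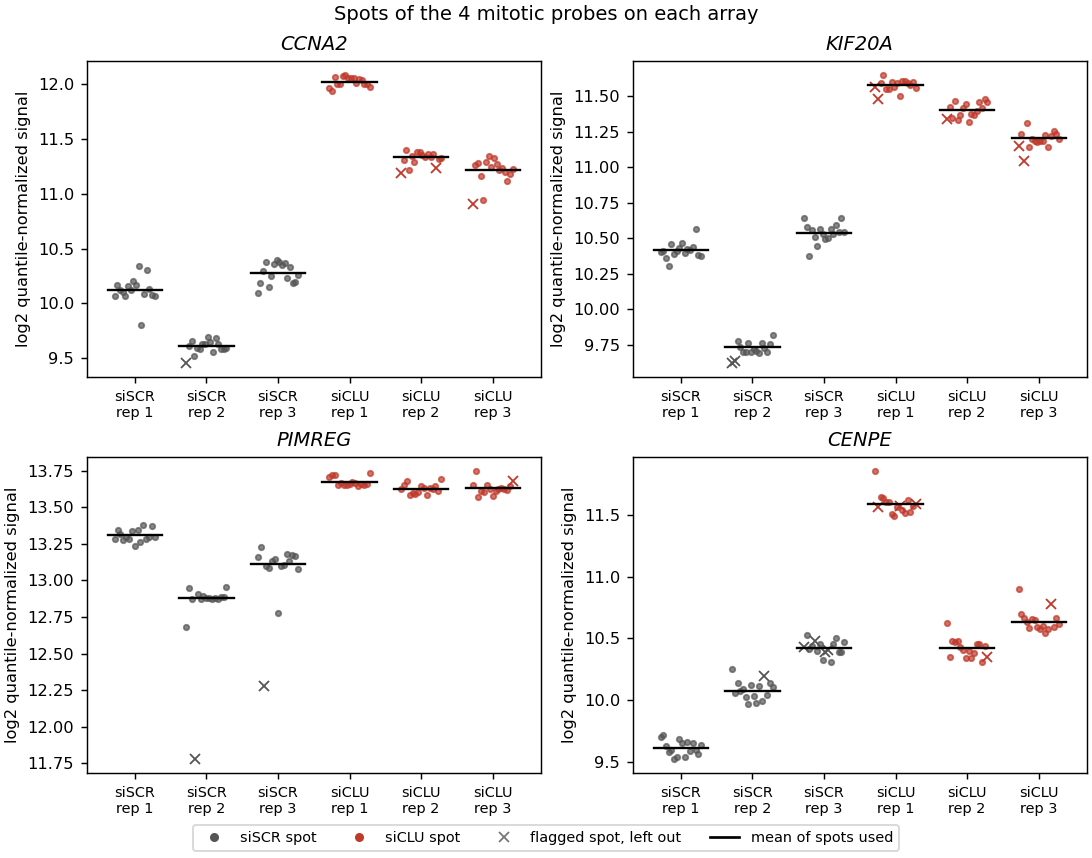
log2 quantile-normalized signal (y axis) of every spot of the CCNA2, KIF20A, PIMREG and CENPE probes on each of the 6 arrays (x axis), with siSCR in gray, siCLU in red, crosses for spots marked as outliers and left out, and a black line at the mean of the spots used. The spots of each array lie close to their line, and the siCLU and siSCR arrays are apart for CCNA2, KIF20A and PIMREG but meet at 10.42 for CENPE.

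The members were set beside all probes tested. Across the 130718 kept probes the median log2 difference was 0.12 and 5% to 95% of them lay between -0.93 and 1.19, while the median of the 4 members was 1.01 and that of the 39 other kept probes with a RefSeq accession was 0.076. By size of the difference, CCNA2 stood at percentile 98.0 of the kept probes, KIF20A at 94.8, CENPE at 88.9 and PIMREG at 79.0. After subtraction of the median of the kept probes the differences were 1.40 for CCNA2, 1.05 for KIF20A, 0.73 for CENPE and 0.42 for PIMREG. Since the members were selected on this contrast, nothing is read from their place in the distribution.

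**Figure D2:**
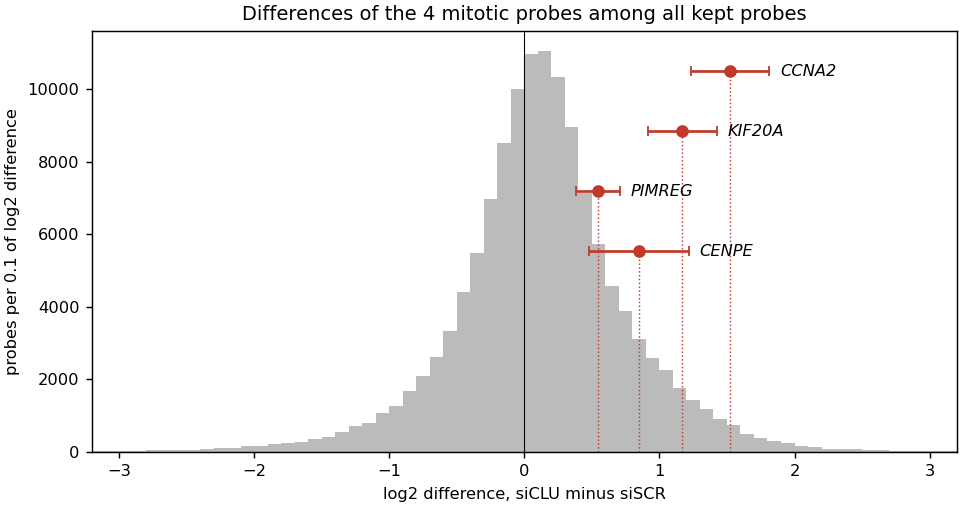
Number of kept probes (y axis) by log2 difference, siCLU minus siSCR, in steps of 0.1 (x axis), with CCNA2, KIF20A, PIMREG and CENPE as red points at heights chosen for legibility. Bars are 1 moderated SE from limma. CCNA2 at 1.52 and KIF20A at 1.17 lie in the right tail, CENPE at 0.85 and PIMREG at 0.54 nearer the bulk, whose median is 0.12.

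Under the limits of the study's methods, an adjusted p of 0.05 and a fold of 1.5, limma with Benjamini-Hochberg adjustment over the kept probes called 0 of the 4 members higher in siCLU, beside 0.952% of all kept probes called higher. At an unadjusted p of 0.05 and the same fold, limma had 2 of the 4 higher, beside 8.98% of all kept probes. The methods' t-test after adjustment had 0 of the 4, beside 0.00153% of the 130673 probes it could test. In a fit of the 77980 probes that passed the background mark on every array, limma called 2 of the 4, CCNA2 and KIF20A, beside 4.95% of those probes. Without a test, 3 of the 4 members (CCNA2, KIF20A and PIMREG) had every siCLU array above every siSCR array, as had 19.1% of the 130673 kept probes with a value on every array. The selection used the same contrast, so these counts are given as a description of the members.

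The arrays of a group differed more than the spots on an array. For CCNA2 the SD between spots of an array was 0.042 to 0.12 on the log2 scale, while the SD between arrays of a group, pooled over both groups, was 0.39, or 5.54 times the median spot SD of 0.071. The corresponding ratio was 6.9 for KIF20A (array SD 0.34), 6.83 for CENPE (array SD 0.53) and 3.76 for PIMREG (array SD 0.15). For the 38 other probes with a RefSeq accession that passed the background mark on every array, the median spot SD was 0.074 and the median array SD 0.28, so 3 of the 4 members had an array SD above that median and PIMREG had not. These SDs are of quantile-normalized values. With no normalization between arrays the siCLU arrays of PIMREG lay further apart, at 14.10, 13.78 and 13.48, and SDs are not given for that scaling. Averaging the spots therefore left little error within an array, and 3 arrays a group set the precision.

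**Figure D3:**
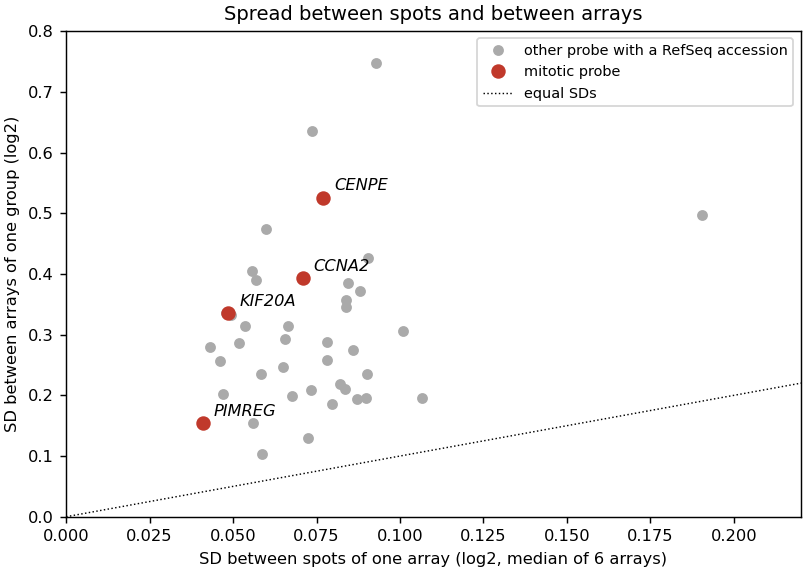
SD between arrays of a group (y axis, log2, pooled over both groups) against SD between spots of an array (x axis, log2, median of the 6 arrays) for the 4 mitotic probes in red and 38 other probes with a RefSeq accession in gray, with a dotted line where both are equal. After quantile normalization, CENPE at 0.53 lies high among the probes, PIMREG at 0.15 low, and all 4 lie above the line.

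The single spots separated in the same way. Each array carried 16 spots of CCNA2, KIF20A and CENPE and 15 of PIMREG, 63 in all. All 45 siCLU spots of CCNA2, all 43 of KIF20A and all 44 of PIMREG that were used lay above the highest siSCR spot of their gene. For CENPE 29 of 43 did, those of siCLU replicates 1 and 3 all among them, while most spots of siCLU replicate 2 lay within the range of siSCR. Spots of a probe share the RNA of their array and are not replicates of a condition.

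A few positions on the slide read apart from the others of their probe. The CCNA2 spot in row 98 was below the median of the CCNA2 spots on all 6 arrays, with deviations from -0.32 to -0.058, and was marked as an outlier on 3. The CENPE spot in row 7 was above its median on all 6 arrays, by 0.0078 to 0.28, and the KIF20A spot in row 55 was marked on 4 arrays. For PIMREG the 2 marked spots of siSCR replicates 2 and 3 deviated by -1.101 and -0.85 from the median of their array, and with all marked spots kept the log2 difference of PIMREG was 0.59. Over the 6 arrays 4 spots of CCNA2, 7 of KIF20A, 3 of PIMREG and 10 of CENPE were left out for such marks.

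Within each group the arrays were not ordered alike for every member. siCLU replicate 1 was the highest array of its group for all 4, by 0.50 above the group mean for CCNA2, 0.18 for KIF20A, 0.71 for CENPE and 0.032 for PIMREG, where 5% to 95% of the kept probes deviated by -0.54 to 0.58 on that array. Among siSCR arrays replicate 2 was the lowest for CCNA2, KIF20A and PIMREG, and replicate 1 for CENPE. CENPE thus deviated by -0.42 from its group mean on siSCR replicate 1, where CCNA2, KIF20A and PIMREG were 0.12 to 0.21 above theirs.

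**Figure D4:**
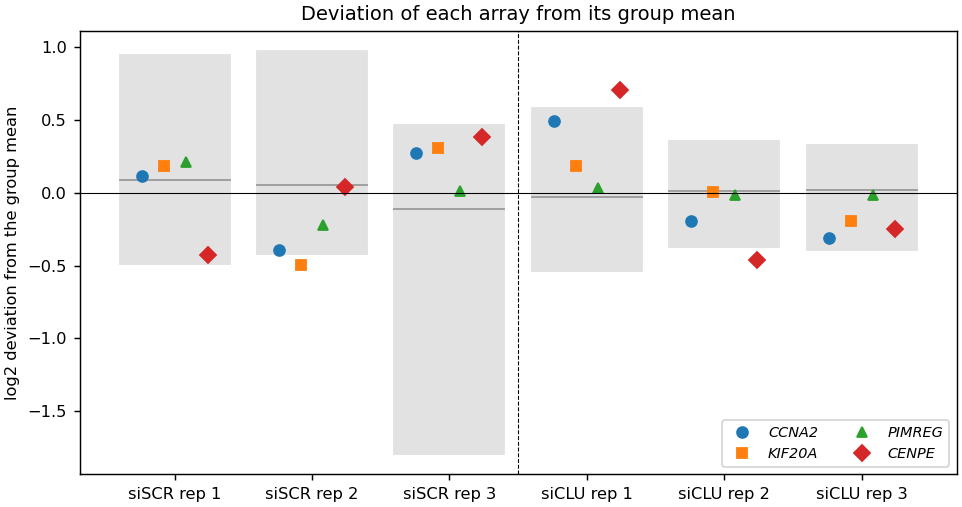
log2 deviation of each array from its group mean (y axis) for CCNA2, KIF20A, PIMREG and CENPE on the 6 arrays (x axis), over gray boxes that span the 5th to 95th percentile of all kept probes with a line at their median. On siCLU replicate 1 all 4 members are above 0, CENPE the highest at 0.71, and on siSCR replicate 2 CCNA2, KIF20A and PIMREG are below 0.

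The slides allow the groups to be set side by side within slide 2 alone. There, siCLU replicate 3 was above the mean of siSCR replicates 2 and 3 by 1.27 for CCNA2, 1.07 for KIF20A, 0.63 for PIMREG and 0.39 for CENPE. Between the other slides, siCLU replicates 1 and 2 were above siSCR replicate 1 by 1.56 for CCNA2, 1.08 for KIF20A, 0.34 for PIMREG and 1.39 for CENPE. KIF20A was nearly the same by both routes, while CENPE and CCNA2 were higher between slides and PIMREG within the slide. Each route has only 1 array in a group, and the siSCR arrays of slide 2 were at 9.73 and 10.54 for KIF20A. The order of the routes is therefore not read as a trait of a gene. The part of slide in these differences was not tested. Between the other slides it cannot be told apart from that of the siRNA, since slide 1 held only siSCR and slide 3 only siCLU.

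The bright tiles of siSCR replicate 3 held 2 spots of CCNA2, 3 of KIF20A, 3 of CENPE and 1 of PIMREG. The spot of PIMREG and 1 of those of CENPE were already left out as outliers, so nothing was removed for PIMREG. Without the remaining spots the log2 value of that array went from 10.28 to 10.26 for CCNA2 and from 10.54 to 10.55 for KIF20A, and it was 10.42 with and without them for CENPE. With the whole array left out, the log2 difference was 1.66 for CCNA2, 1.33 for KIF20A, 1.04 for CENPE and 0.55 for PIMREG.

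The members were also set against the median of all kept probes under each scaling of the arrays. The median log2 difference of the kept probes was 0.12 after quantile normalization, 0.078 after a 75th percentile shift, 0.050 after normexp background correction, 0.12 in the deposited log2 table and 0.33 with no normalization between arrays. Relative to that median, CCNA2 was higher in siCLU by 1.37 to 1.47 over these 5 scalings, KIF20A by 1.03 to 1.12, CENPE by 0.71 to 0.80 and PIMREG by 0.42 to 0.51. A 75th percentile shift moves each array by a constant, so its relative values repeat those with no normalization. The CENPE groups overlapped after quantile normalization and in the deposited table and did not after the other 3.

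**Figure D5:**
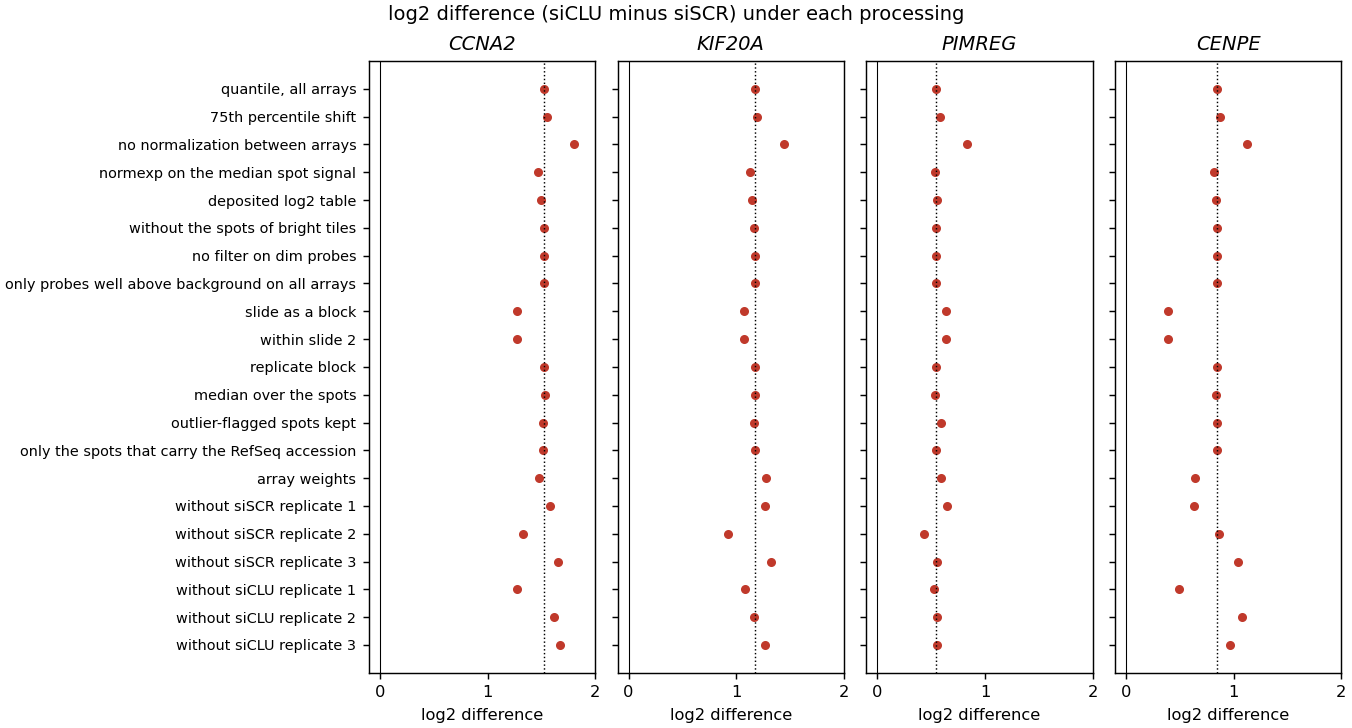
log2 difference, siCLU minus siSCR (x axis), of CCNA2, KIF20A, PIMREG and CENPE under each way of processing the arrays (y axis), with a dotted line at the value of the quantile-normalized fit of all arrays and a solid line at 0. All points lie right of 0, and those of CENPE range most relative to their size, from 0.39 within slide 2 to 1.12 with no normalization.

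The profiles of the members over the 6 arrays, each centered on its own mean, were compared with those of the 49 other probes with a RefSeq accession by the root-mean-square log2 difference, as a description over 6 arrays. The likeness spans both groups and so includes the contrast on which the members were selected. The medians given beside it are over the 42 of these probes that passed the filter on dim probes. Nearest to CCNA2 was KIF20A at 0.24, followed by WDHD1 at 0.42, where the median was 0.79. For KIF20A the nearest after CCNA2 was WDHD1 at 0.30 (median 0.63). CENPE was nearest to ATAD2 at 0.21 and WDHD1 at 0.25 (median 0.57), and PIMREG to COL13A1 at 0.16 and CHAF1B at 0.23 (median 0.38). Among the members themselves CCNA2 and PIMREG were furthest apart at 0.56, and CENPE was 0.47 from CCNA2, 0.47 from KIF20A and 0.49 from PIMREG.

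Few other genes of mitosis can be followed by name on these arrays. Of 54 genes of a G2/M list, only CENPE and PIMREG had a named probe, of 13 mitotic kinesins only CENPE and KIF20A, of 24 cyclins and regulators of cyclin-dependent kinases only CCNA2, of 24 spindle checkpoint and kinetochore genes only CENPE, and of 16 genes of mitotic exit 0. A further 3 kinetochore genes were added once the named probes were known, and limma called 0 of the 3 higher and 0 lower, beside 0.952% and 0.663% of the kept probes. At an unadjusted p of 0.05 with no limit on the fold, 0 of the 3 passed in either direction, beside 22.1% of the kept probes, and nothing is read from a list this short. SPDL1, which brings dynein to kinetochores, differed by 0.46 (SE 0.28), with siCLU arrays at 11.40, 10.74 and 10.88 and siSCR arrays at 10.08, 10.80 and 10.74. ITGB3BP (CENP-R) differed by 0.058 (SE 0.16) and CENPQ, of the inner kinetochore, by -0.35 (SE 0.18).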

How the data were processed

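RNA from PC3 cells transfected with siCLU or siSCR was measured on 6 one-color arrays, grouped by the sample labels. The authors scanned the arrays and ran Feature Extraction (10.5.1.1 in the file headers, 10.10 in the submitters' processing notes), and the deposited array files give a background-corrected linear intensity per spot, not normalized between arrays. A deposited table of log2 values, which the authors had quantile normalized in GeneSpring, served as an alternative, and all its columns belong to the 6 arrays.

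From the processed signal, values under 1 would have been set to 1, log2 was taken, and non-control spots were quantile normalized as in the study's methods. Spots marked as outliers were left out, spots of a probe were averaged, and 130718 probes well above background on at least 3 arrays were kept. limma 3.58.1 in R 4.3.3 (lmFit, eBayes) compared the groups, with Benjamini-Hochberg adjustment over all kept probes, and was tested on simulated data. Figures were drawn with matplotlib 3.10.9. The 50 RefSeq accessions were all matched to a RefSeq gene table of GRCh38.p14 for gene names, and promoters came from a separate RefSeq table of that build. Tests had been planned for genes, while most probes have no gene name. CLU is not analysed here.

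The members and gene lists were chosen with earlier results of these data known. Named genes are the 4 members, the 2 nearest profiles of each, and list genes with a named probe. The planned normexp correction (offset 50) used the median spot signal, and the fit with only the spots that carry the accession was added after seeing the data. Other alternatives were other scalings and filters, slide or replicate blocks, other tests and thresholds, array weights and leaving out arrays. The number of arrays limits precision.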

Additional observations from a re-analysis of the deposited data

How the results depend on the processing

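The 4 members were higher in siCLU in all 20 alternatives that give a log2 difference: 1.27 to 1.80 for CCNA2, 0.92 to 1.44 for KIF20A, 0.43 to 0.83 for PIMREG and 0.39 to 1.12 for CENPE. Not all of the 20 are distinct. The filters on dim probes and the replicate block cannot change these differences, and the slide block repeats the value within slide 2. The members were selected on this contrast, so nothing is read from their shared direction. PIMREG was 0.83 with no normalization between arrays, where the median of all kept probes was 0.33. CENPE moved by over 1.5 times only when siCLU replicate 1 was left out (0.49), or with a slide block or within slide 2 (0.39 in each). With the slide block its standard error was 0.59, larger than the difference, against 0.37 without a block. With arrays left out in turn, 0 to 1 members passed the threshold. The 1 was CCNA2 without siSCR replicate 3, where 2307 of the 130718 kept probes were called higher.

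The count of members past the threshold was 0 in the fit of all arrays, with 2112 probes past it (1245 higher, 867 lower). It was 2, CCNA2 and KIF20A in each case, after a 75th percentile shift (5319 probes, 2932 higher) and with normexp (9312 probes, 4798 higher). A trended and robust prior (8914 probes, 4676 higher) and array weights (12563 probes, 7122 higher) gave the same 2. So did the filter that asks for the background mark on every array (8173 probes, 3857 higher, or 4.95% of the 77980 tested). The count was 1, CCNA2, with slide as a random block (4478 probes, 2471 higher). Apart from that filter, each of these fits tested 130718 probes. With no normalization 3787 probes passed, 2702 of them higher, and 0 members. By limma, 0 probes passed with no filter on dim probes (22748 at an unadjusted p of 0.05 and 1.5-fold), with slide as a block (6971), within slide 2 (4085) and with a replicate block (20040), and the methods' t-test gave 2 (13449). Leaving out an array gave 0 to 4237 probes, 4237 without siSCR replicate 3 and 0 without any other single array (16536 to 21900 unadjusted). The cause of these changes was not tested. With the replicate block the log2 differences were 1.52, 1.17, 0.54 and 0.85 for CCNA2, KIF20A, PIMREG and CENPE. Arrays of the same number deviated with correlations of -0.043, -0.24 and 0.16. Whether the numbers pair the arrays was not tested.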

Other observations

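On each array 1 spot each of CCNA2, KIF20A and CENPE carried the probe name in place of the RefSeq accession. Its log2 deviation was taken from the median of all spots of the probe on the same array. The median deviation over the arrays was -0.012 for CCNA2, 0.039 for KIF20A and 0.063 for CENPE. The deviations ran from -0.32 to 0.094 for CCNA2, from -0.029 to 0.098 for KIF20A and from 0.037 to 0.16 for CENPE.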
